A study of Rattus norvegicus with 18 samples.

Results

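Tight junctions seal the space between the epithelial cells of the kidney collecting duct and set which ions can pass between them. Claudins are the membrane proteins that form the strands and give them their charge selectivity, occludin (Ocln) and Marveld3 are tetraspan proteins of the MARVEL family in the strands, and zonula occludens 1 (Tjp1) and cingulin (Cgn) are cytoplasmic plaque proteins that tie the strands to actin. In the collecting duct, claudin 4 and claudin 8 are known to act together in a paracellular chloride pathway, with claudin 8 needed to place claudin 4 at the junction. The genes described here are the claudins Cldn3, Cldn4, Cldn7 and Cldn8, the plaque genes Cgn and Tjp1, and Marveld3 and Ocln. They were found by symbol, 8 rows of the 32883 in the deposited table, and each symbol matched 1 row.

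The RNA came from cortical collecting ducts dissected by hand from kidneys of male Sprague-Dawley rats. Vehicle samples were taken 3 h after an intraperitoneal injection of normal saline and LPS samples 3 h after lipopolysaccharide, a bacterial cell wall component. No genetic change is named in the labels, which give neither the dose nor the age of the animals. Each group held 3 numbered samples of 3 libraries each, 18 libraries in all, and the design text calls the comparison paired. The labels do not say what a pair shared or that each numbered sample was 1 animal, so the p-values speak only to the variation among these 6 samples, which may be technical.

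Values are TPM, a transcript's share of all transcripts in a library scaled to a fixed total, which are corrected for transcript length and can be compared between genes. Their read depth is unknown, so counting error could not be given. The dissected material carried the defining collecting duct transcripts. Summed over 10 principal cell markers, Vehicle samples held 16010 to 17874 TPM and LPS samples 8918 to 12476 TPM. The 10 intercalated cell markers summed to 8707 to 9217 TPM and 6056 to 8056 TPM. Single markers were mixed. Of the principal cell markers 7 were called lower and 3 not, such as Scnn1b at 637 and 606 TPM. Of the intercalated cell markers 2 were called lower and 8 not. In bulk samples fewer cells of a type and less RNA per cell cannot be told apart. Proximal tubule markers summed to at most 30.3 TPM in any sample and podocyte markers to at most 5.24 TPM. Distal convoluted and connecting tubule markers summed to 5862 TPM in Vehicle 1 and to 132 to 650 TPM in the other 5 samples. Slc12a3 stayed at or below 0.0933 TPM and Pvalb at 0. Of 5 tested rows of that list 3 were called lower and 2 not. Of 10 monocyte and macrophage markers 5 were called higher (Fcer1g, Adgre1, C1qa, Cd14 and Tyrobp), 1 lower (Csf1r) and 4 not. Among all genes tested 7.17% were called higher and 22.2% lower. Fcer1g stood at 17.3 and 49.5 TPM and Adgre1 at 1.09 and 4.87 TPM, while the list's sum, mostly Lyz2, overlapped at 122 to 251 and 211 to 443 TPM. Endothelial sums were 23.0 to 102 and 34.4 to 90.1 TPM, with Cldn5, the endothelial claudin, at 0 in every library. Of 8 tested endothelial markers 1 was called higher, 1 lower and 6 not. In Vehicle and LPS, Esam, called higher, stood at 4.65 and 20.9 TPM and Egfl7, called lower, at 6.45 and 2.50 TPM. Plvap, the most abundant, stood at 36.7 and 34.1 TPM. The part these other cells play in the results was not tested.

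After LPS, the claudin 4 transcript rose and the claudin 8 transcript fell, cingulin RNA fell the most of the 8 genes, and Marveld3 rose. Mean Cldn4 moved from 246 ± 79.7 up to 819 ± 364 TPM, and mean Cldn8 from 991 ± 118 to 607 ± 166 TPM (SD, n = 3). Cgn went from 15.3 ± 2.59 to 2.33 ± 1.63 TPM and Marveld3 from 23.6 ± 6.94 to 46.7 ± 9.72 TPM. For Cldn3, Cldn7, Tjp1 and Ocln the test found no change past its threshold. Of the 8 genes, 2 were called higher and 2 lower at an adjusted p under 0.05 (limma on log2(TPM + 1), adjusted over the 12393 genes tested). Calls were common in this comparison. Of all genes tested, 29.4% were called, 7.17% as higher and 22.2% as lower, which is 889 and 2757 genes. Median-ratio scaling gave 829 higher and 462 lower genes, with 1 higher and 1 lower among the 8 described here. Quantile normalization gave 809 higher and 579 lower genes, with 1 higher and 2 lower among the 8. The sample ranges of the 2 groups did not overlap for 4 of the 8 genes, against 56.9% of all genes tested. All 8 genes passed the filter of a mean of 1 TPM over all libraries, and none was at 0 in any library.

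**Figure D1:**
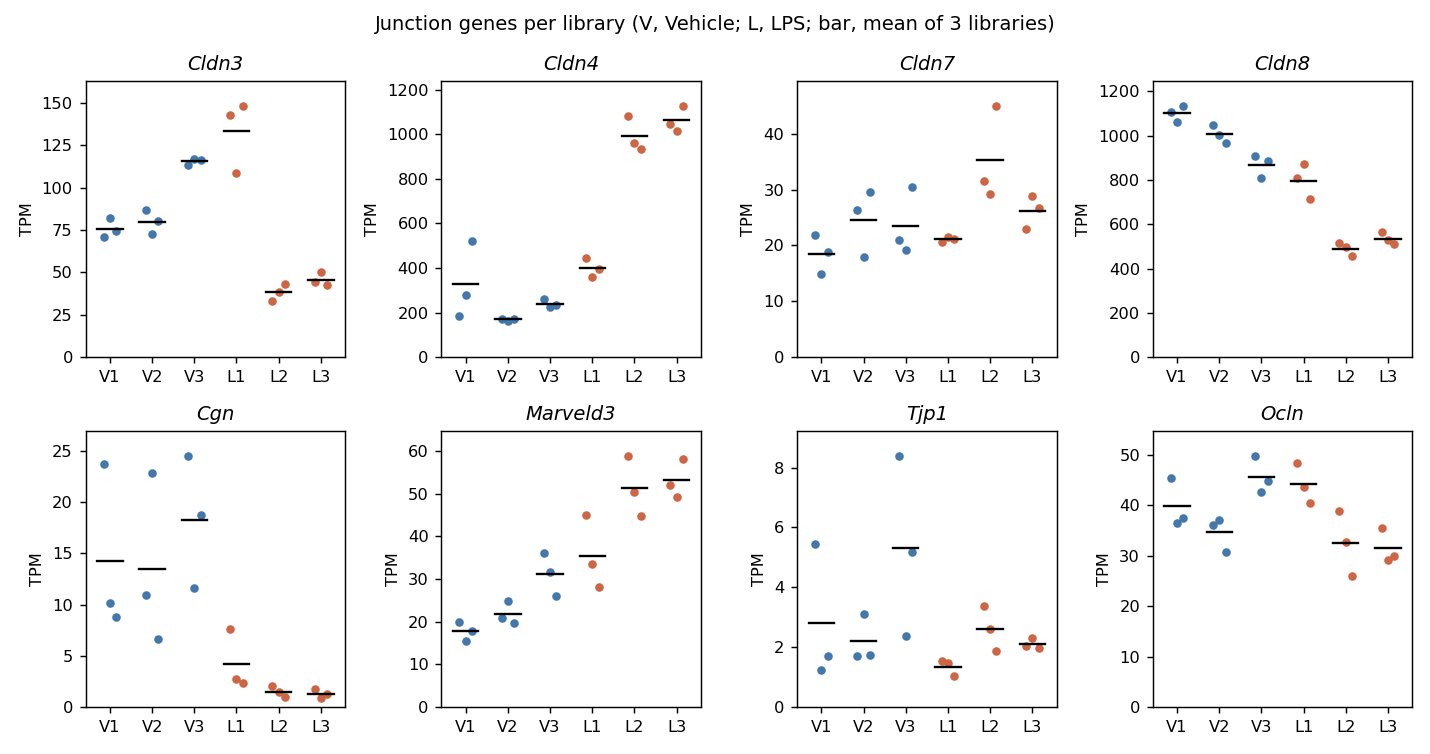
TPM of each of the 8 genes in each of the 18 libraries (vertical axes, linear, from 0), with Vehicle samples (V1 to V3, blue) and LPS samples (L1 to L3, orange) along the horizontal axis; points are libraries and black bars the mean of the 3 libraries of a sample. Cldn4 stood at 993 and 1063 TPM in LPS 2 and LPS 3, LPS 1 at 402 TPM lay nearer the Vehicle samples, and Cgn was lowest in LPS 2 and LPS 3.

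The order of the levels differed between the groups. In Vehicle, Cldn8 stood first, followed by Cldn4, Cldn3, Ocln, Marveld3, Cldn7, Cgn and Tjp1 at 3.43 ± 1.65 TPM (SD, n = 3). Neighbours in this order had separate sample ranges, except Marveld3 and Cldn7, at 17.7 to 31.2 and 18.5 to 24.6 TPM. In LPS, Cldn4 had the highest mean, but its sample range of 402 to 1063 TPM overlapped that of Cldn8, 489 to 796 TPM. Further down, the ranges of Cldn3 and Marveld3, Marveld3 and Ocln, Ocln and Cldn7, and Cgn and Tjp1 overlapped.

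Among the claudins, Cldn4 (ENSRNOG00000001476) encodes a barrier claudin of the distal nephron and collecting duct, and it is also a known receptor of Clostridium perfringens enterotoxin. It stood at 329 TPM in Vehicle 1, 170 in Vehicle 2 and 241 in Vehicle 3, and at 402, 993 and 1063 TPM in LPS 1, LPS 2 and LPS 3. The groups did not overlap, and LPS 1 lay closer to Vehicle 1 than to the other LPS samples. On the log2(TPM + 1) scale the change was 1.70 (SE 0.371, 95% interval 0.82 to 2.58, limma adjusted p = 0.0225), with differences of 0.41, 2.54 and 2.14 in the 3 pairs. Vehicle 1 was uneven, with library values of 185, 279 and 523 TPM, and it was also the sample with the high sum of connecting tubule markers. Without library 3 of that sample the change was 1.83 with adjusted p = 0.0171. The call was lost with median-ratio scaling of the libraries (2.10, limma adjusted p = 0.0638) and with quantile normalization (1.64, adjusted p = 0.0679). It was also lost without sample number 2 or 3 (1.28 and 1.48), and it stood in 8 of 16 other settings. Without sample number 3, and with the median over libraries, 0 of the 12393 genes tested were called, so those settings are not particular to Cldn4.

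Cldn8 (ENSRNOG00000001571), the partner of claudin 4 in the duct, was the most abundant claudin of the Vehicle samples. Its levels were 1100, 1007 and 866 TPM in Vehicle 1, Vehicle 2 and Vehicle 3, and 796, 489 and 534 TPM in LPS 1, LPS 2 and LPS 3. Every LPS sample lay below every Vehicle sample, and LPS 1 was nearest to them. The transcript fell by 0.74 (log2, SE 0.145, 95% interval -1.08 to -0.39, limma adjusted p = 0.0176), and the pairs differed by -0.47, -1.04 and -0.70. The median change of all genes tested was -0.38, and 76.5% of them lay below 0. With median-ratio scaling, which moved that median to -0.02, Cldn8 stood at -0.33 with adjusted p = 0.178, and with quantile normalization at -0.87 with adjusted p = 0.0255. Its libraries were the most alike of the 8 genes, with an SD of 0.0892 (log2) between libraries of a sample, against 0.608 for Cgn. The call was lost without sample number 2 or 3 (limma adjusted p = 0.0506 and 0.28) and stood in 9 of 16 other settings. Without sample number 3, and with the median over libraries, 0 of the 12393 genes tested were called.

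Cldn3 (ENSRNOG00000046007) encodes another enterotoxin-binding barrier claudin. In the RefSeq gene table, whose assembly is GRCr8, it neighbours Cldn4, with 0 protein-coding genes and 2 pseudogenes between them. It stood at 75.8, 80.0 and 116 TPM in the Vehicle samples and at 133, 38.2 and 45.5 TPM in LPS 1, LPS 2 and LPS 3. LPS 1 was above every Vehicle sample, while LPS 2 and LPS 3 were below all of them. The limma change of -0.53 (SE 0.389, 95% interval -1.45 to 0.39) had an adjusted p of 0.305. Without sample number 1, the pair with the high LPS value, it was -1.19 and was called (limma adjusted p = 0.0186). That setting called more genes in all, 1004 higher and 3595 lower against 889 and 2757. Cldn7 (ENSRNOG00000017325), a claudin found along the basolateral membrane of distal tubule cells as well as at junctions, had Vehicle values of 18.5, 24.6 and 23.5 TPM and LPS values of 21.1, 35.2 and 26.2 TPM. The groups overlapped, and the change of 0.29 (95% interval -0.15 to 0.73) had an adjusted p of 0.242. Across the 16 other settings Cldn7 stayed above 0, from 0.18 to 0.68, and was called in 0 of them, with adjusted p from 0.0595 to 0.72.

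The summed claudin RNA differed between the groups by less than its spread over samples, while its make-up shifted. The table holds 28 rows with a claudin symbol, and 13 had a mean of at least 1 TPM. All rows summed to 1692 ± 145 TPM in Vehicle against 1766 ± 148 TPM after LPS (SD, n = 3, exact permutation test, two-sided, p = 0.6). A share of this sum is not changed by a constant factor on all values of a library. The shares of a sample add up to a fixed whole, so a larger Cldn4 share leaves less for the other claudins. Cldn8 made up 59.9, 60.5 and 55.4% of claudin TPM in the Vehicle samples and 49.4, 27.5 and 28.0% in the LPS samples. Cldn4 made up 17.2, 10.2 and 15.4% in Vehicle, and 24.9, 55.8 and 55.7% in LPS. Neither share overlapped between the groups, and LPS 1 again stood between the Vehicle samples and the other LPS samples. Lack of overlap was common, since the shares of Cldn9, Cldn19, Cldn6, Cldn16, Cldn12, Cldn10 and Cldn23 did not overlap either. The mean shares differed by 31.2 percentage points for Cldn4 and -23.6 for Cldn8, each with p = 0.1 in an exact two-sided permutation test (adjusted p = 0.144 over 13 claudins). With 3 samples against 3, compared without using the pairing, no p below 0.1 can be reached.

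**Figure D2:**
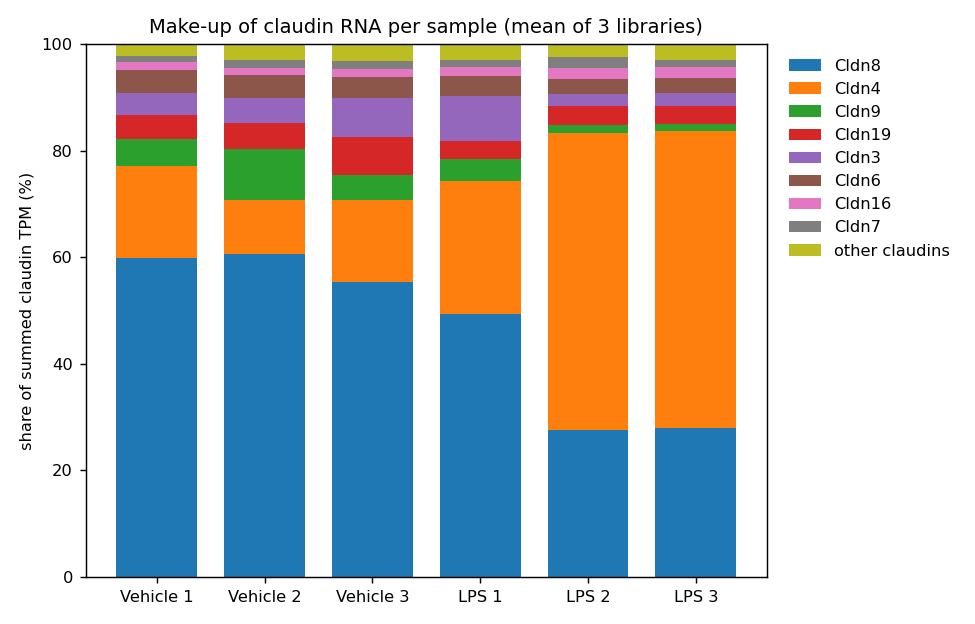
Share of the summed claudin TPM (vertical axis, percent) taken by each claudin in the 6 samples, each bar being the mean over 3 libraries. Cldn8 (blue) held 55.4 to 60.5% in Vehicle and 27.5 to 49.4% in LPS, and Cldn4 (orange) 10.2 to 17.2% in Vehicle and 24.9 to 55.8% in LPS.

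The ratio of Cldn4 to Cldn8 gives the same shift in 1 number per sample. In TPM, taken as the mean of the 3 library ratios, it was 0.297, 0.169 and 0.278 in Vehicle 1, Vehicle 2 and Vehicle 3. In LPS 1, LPS 2 and LPS 3 it was 0.509, 2.03 and 2.00. Cldn4 therefore exceeded Cldn8 in LPS 2 and LPS 3, and it was below Cldn8 in LPS 1 and in the Vehicle samples. The mean log2 ratio went from -2.09 ± 0.406 to 0.34 ± 1.15 (SD, n = 3), a difference of 2.43. Of 5 ratios between these genes, 4 did not overlap between the groups, namely Cldn4 to Cldn8, Cldn4 to Cldn7, Marveld3 to Ocln and Cgn to Tjp1. Each had an exact two-sided permutation p = 0.1 (adjusted p = 0.125), the smallest for 3 samples against 3 when the pairing is not used. The first gene of each of these 4 was itself called, and the ratios were chosen with earlier results known. How often ratios of other genes separate the groups was not tested, while 56.9% of single genes tested did so. Cldn4 to Cldn7 differed by 1.41. Cldn3 to Cldn8 overlapped, with a difference of 0.21 (exact permutation p = 0.6) that was -0.32 without sample number 1.

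**Figure D3:**
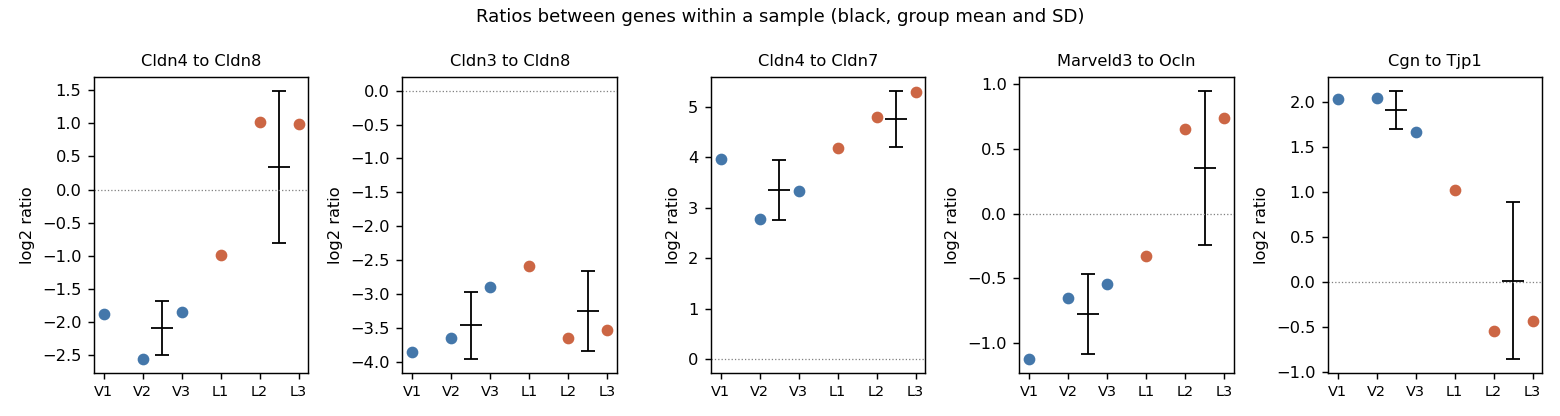
Log2 ratio between paired genes in each sample (vertical axes, log2 of TPM + 1 ratios, mean of 3 libraries), with Vehicle samples in blue, LPS samples in orange and the group mean and SD in black; the dotted line marks equal levels. The Cldn4 to Cldn8 ratio was below 0 in the Vehicle samples and in LPS 1 and near 1 in LPS 2 and LPS 3.

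Among the MARVEL genes, Marveld3 (ENSRNOG00000016291) encodes a junction protein that is known to restrain stress kinase signalling. It stood at 17.7, 21.8 and 31.2 TPM in the Vehicle samples and at 35.5, 51.4 and 53.2 TPM in LPS 1, LPS 2 and LPS 3. The groups did not overlap, although Vehicle 3 and LPS 1 lay close together. The log2 change was 0.97 (SE 0.183, 95% interval 0.53 to 1.40, limma adjusted p = 0.0156), and the pairs differed by 0.94, 1.20 and 0.76. It was larger when libraries were rescaled, at 1.36 with median-ratio scaling (limma adjusted p = 0.0175) and 1.23 with quantile normalization (adjusted p = 0.0146). The call was lost without sample number 2 or 3 (limma adjusted p = 0.144 and 0.244). Without number 3, 0 of the 12393 genes tested were called. Ocln (ENSRNOG00000018297), the occludin gene, had 39.8, 34.7 and 45.7 TPM in Vehicle and 44.2, 32.5 and 31.5 TPM in LPS. The groups overlapped, with a change of -0.16 (95% interval -0.63 to 0.31, adjusted p = 0.536) that was above 0 under both rescalings. The interval still allows a fall as large as the median change of all genes tested, -0.38. Marveld3 was below Ocln in the Vehicle samples and in LPS 1, with mean library ratios of 0.446 to 0.683 and 0.796. It was above Ocln in LPS 2 and LPS 3, at 1.59 and 1.70. Another MARVEL gene, Marveld2, the tricellulin gene, stood at 26.5 ± 2.43 and 26 ± 5.12 TPM (SD, n = 3) and was named after its values were seen. Marveld1, which was called lower, is described with the other junction membrane proteins.

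Of the plaque genes, Cgn (ENSRNOG00000020952) encodes cingulin, which binds zonula occludens 1 and holds the RhoA activator GEF-H1 (Arhgef2) at the junction. Its levels were 14.2, 13.5 and 18.3 TPM in Vehicle 1, Vehicle 2 and Vehicle 3, and 4.21, 1.49 and 1.3 TPM in LPS 1, LPS 2 and LPS 3. Every LPS sample lay below every Vehicle sample, although single libraries overlapped, the highest LPS library at 7.57 TPM and the lowest Vehicle library at 6.62 TPM. The group means differed 6.56-fold. Cgn fell by 2.33 (log2, SE 0.307, 95% interval -3.05 to -1.60, limma adjusted p = 0.00524), and the pairs differed by -1.55, -2.40 and -3.02. It kept its call with median-ratio scaling (-2.02, limma adjusted p = 0.025) and quantile normalization (-1.97, adjusted p = 0.0209). Without sample number 3 it was not called (-1.98, limma adjusted p = 0.225), but there 0 of the 12393 genes tested were called. The pseudocount matters at these levels, since the change was -2.82 with 0.1 added and -1.43 with 5 added.

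Tjp1 (ENSRNOG00000011077), the central scaffold of the junction, was listed at low values, 2.79, 2.19 and 5.31 TPM in Vehicle and 1.34, 2.62 and 2.10 TPM in LPS. The groups overlapped, and the change of -0.42 (95% interval -1.10 to 0.27) had a limma adjusted p of 0.276. By the mean of the 3 library ratios, Cgn exceeded Tjp1 3.82- to 5.89-fold in the Vehicle samples and 3.02-fold in LPS 1. In LPS 2 and LPS 3 it was lower than Tjp1, with mean library ratios of 0.558 and 0.631. The log2 ratio moved by -1.91 between the group means, without overlap. Tjp3, a paralog named after its values were seen, was more abundant than Tjp1, with Vehicle samples at 57.0 ± 9.32 TPM and LPS samples at 37.9 ± 18.1 TPM (SD, n = 3), and was not called (limma adjusted p = 0.104).

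Libraries of a sample differed in a way that touched the plaque genes more than the claudins. The first principal component of deviations within samples held 18.8% of that variance. In each sample, the library that scored highest on it also had the highest Cgn and the highest Ocln, 6 of 6 samples, and the highest Tjp1 and Marveld3 in 5 of 6. For Cldn4 and Cldn8 this held in 3 samples and for Cldn3 in 0. Cgn averaged 23.7 TPM in those libraries of Vehicle and 11.1 TPM in the others, and 3.80 and 1.60 TPM in LPS, so it was lower after LPS in either kind. Without the highest-scoring library of each sample the changes were -2.21 for Cgn, 1.55 for Cldn4, -0.75 for Cldn8 and 0.97 for Marveld3, but the adjusted p of each was above 0.05, from 0.0505 for Cgn to 0.0985 for Cldn4. The variance prior of that fit was worth 2.26 degrees of freedom, against 4.97.

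**Figure D4:**
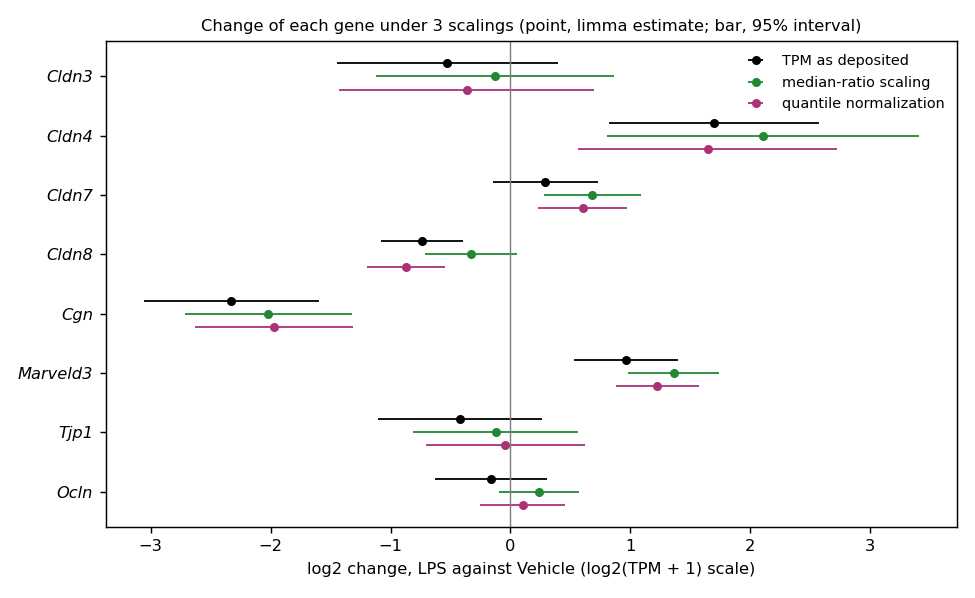
Log2 change of each gene between LPS and Vehicle (horizontal axis, log2(TPM + 1) scale; points, limma estimates; bars, 95% intervals) with TPM as deposited (black), median-ratio scaling (green) and quantile normalization (purple). Cgn lay below 0 and Cldn4 and Marveld3 above 0 under the 3 scalings, while Cldn8 moved from -0.74 to -0.33 with median-ratio scaling and Ocln changed sign.

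Because Cgn and Cldn8 both fell, the stretch before their start sites is shown for comparison. RefSeq promoters (build GRCr8, matched by symbol) were at hand for 6 of the 8 genes. Each sequence is the 250 bases before the start, 5′ to 3′ on the gene's strand, at chr2:185023636-185023885 on the minus strand for Cgn and chr11:41364331-41364580 on the minus strand for Cldn8. Capitals mark matches to 8 motifs searched on both strands.
Cgn: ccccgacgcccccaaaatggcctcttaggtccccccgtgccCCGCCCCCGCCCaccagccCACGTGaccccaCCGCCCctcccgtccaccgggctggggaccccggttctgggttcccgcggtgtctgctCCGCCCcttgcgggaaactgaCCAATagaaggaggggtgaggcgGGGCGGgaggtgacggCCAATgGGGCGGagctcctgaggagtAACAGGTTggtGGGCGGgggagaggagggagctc
Cldn8: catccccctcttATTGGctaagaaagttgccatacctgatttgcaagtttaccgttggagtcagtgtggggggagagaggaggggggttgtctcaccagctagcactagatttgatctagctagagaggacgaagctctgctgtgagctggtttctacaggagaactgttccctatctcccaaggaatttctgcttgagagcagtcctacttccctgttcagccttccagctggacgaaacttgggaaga

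The windows differ in composition and in their matches. The Cgn window is 71.6% G and C and that of Cldn8 50.4%, against a median of 52% over 27457 promoters. Cgn has 7 GC boxes (GGGCGG), found at least once in 32.4% of all promoters, 2 CCAAT boxes (CCAAT, 34.3%), 1 E-box (CACGTG, 5.79%) and 1 grainyhead-type match (AACNNGTT, 3.5%). Cldn8 has 1 CCAAT box and no match to the other motifs. Neither window has a TATA box (TATAAA, 13.1%), an AP-1 match (TGANTCA, 6.36%), a STAT match (TTCNNNGAA, 7.52%) or a kappaB consensus match (6.41%). Such matches describe the letters of these windows, and overlapping matches of different motifs are merged in the capitals. Tjp1, which was not called, also has 1 grainyhead-type match in its window, which is not shown.

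The other claudins were mixed. Of 20 listed genes 10 were tested, 1 was called higher and 2 lower, against 7.17% and 22.2% of all genes tested. The list median was -0.24 against -0.38 for all genes tested. Cldn23, a claudin best known from gut epithelium, rose from 1.28 ± 0.463 to 6.47 ± 1.72 TPM (SD, n = 3; log2 change 1.69, limma adjusted p = 0.0058), and it was also called under both rescalings. Cldn9 fell from 108 ± 45.4 to 39.1 ± 23.1 TPM (log2 change -1.50, adjusted p = 0.0266) and Cldn12 from 19.0 ± 1.55 to 11.1 ± 2.35 TPM (-0.73, adjusted p = 0.0376), neither being called under the rescalings. Cldn6, a close paralog of Cldn9 with which reads are shared by estimate, stood at 70.6 ± 9.26 and 55.4 ± 6.70 TPM. The other untargeted claudins with at least 1 TPM were not called, Cldn1 at 18.3 and 25.0 TPM, Cldn17 at 3.69 and 2.37 TPM and Cldn10 at 1.78 and 3.33 TPM in Vehicle and LPS. Cldnd1, a distant relative, stood at 99.0 and 89.3 TPM. Cldn16 and Cldn19, which form the cation pathway of the thick ascending limb, stood at 25.4 and 91.6 TPM in Vehicle and at 34.2 and 61.8 TPM in LPS. In those groups Slc12a1, the defining transporter of that segment, averaged 0.369 and 1.82 TPM and Umod 14.7 and 51.5 TPM. Library 1 of LPS 2 carried most of both LPS means, at 12.2 TPM for Slc12a1 and 348 TPM for Umod, and without it they were 0.514 and 14.6 TPM.

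Among other junction membrane proteins (list median -0.05), 2 of 11 tested were called higher and 2 lower, against 7.17% and 22.2% of all genes tested. Cxadr, the coxsackievirus and adenovirus receptor, rose from 16.0 ± 2.62 to 64.6 ± 33.7 TPM (SD, n = 3; log2 change 1.79, limma adjusted p = 0.0185). Lsr and Ildr1 encode angulins, which recruit tricellulin to the corners where cells meet. Lsr rose from 109 ± 8.15 to 199 ± 17.4 TPM (0.86, adjusted p = 0.0112) and Ildr1 fell from 122 ± 3.75 to 73.0 ± 31.0 TPM (-0.81, adjusted p = 0.0447). Marveld1 fell from 2.67 to 0.534 TPM (-1.20, adjusted p = 0.0282). Lsr was called under both rescalings, Cxadr with quantile normalization but not median-ratio scaling (limma adjusted p = 0.0465 and 0.052), and Ildr1 and Marveld1 under neither. F11r, the gene of junctional adhesion molecule A and the most abundant of the list, stood at 522 ± 17.5 and 543 ± 59.7 TPM.

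Of 13 tested scaffold genes other than Cgn and Tjp1 (list median -0.49), 2 were called, each as lower, against 22.2% of all genes tested. The 2 were Wwc1, which encodes the Hippo pathway protein KIBRA and went from 126 ± 24.8 to 63.1 ± 9.54 TPM (SD, n = 3; log2 change -0.96, adjusted p = 0.0217), and Amotl2, an angiomotin family gene, which went from 32.5 ± 9.40 to 19.1 ± 0.90 TPM (-0.70, adjusted p = 0.0421). Neither was called under the rescalings. Ybx3, the gene of a Y-box factor that binds zonula occludens 1, stood at 72.8 and 76.7 TPM, and Cgnl1, the cingulin paralog paracingulin, named after its values were seen, at 26.1 ± 5.31 and 24.7 ± 3.35 TPM, a change of -0.08.

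Polarity genes place the junction along the cell side. Of 13 tested (list median -0.43), 1 was called higher and 5 lower, against 7.17% and 22.2% of all genes tested. Crb3, which encodes the apical Crumbs protein of epithelia, rose from 124 ± 9.91 to 209 ± 34.8 TPM (SD, n = 3; log2 change 0.74, limma adjusted p = 0.0285). Of the Par complex genes, 3 fell, Pard6a from 4.84 to 0.99 TPM (-1.69, adjusted p = 0.0231), Pard6g from 2.72 to 0.65 TPM (-1.16, adjusted p = 0.0258) and Prkcz, an atypical protein kinase C, from 65.9 to 26.9 TPM (-1.37, adjusted p = 0.024). Llgl2, of the basolateral Scribble group, fell from 94.9 to 49.8 TPM (-0.98, adjusted p = 0.0242). The Par genes Pard6b, Prkci and Pard3, named after their values were seen, were not called, at 75.2 and 75.9, 27.3 and 30.6, and 6.65 and 4.64 TPM in Vehicle and LPS. All 5 lower calls of the list were lost under either rescaling, and Crb3 was called with median-ratio scaling (limma adjusted p = 0.0483) but not with quantile normalization (adjusted p = 0.0543).

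Of 16 tested junction regulators (list median -0.34), 1 was called higher and 4 lower, against 7.17% and 22.2% of all genes tested. Klhl3, whose product is known to direct ubiquitination of claudin 8 and of WNK kinases, fell from 8.91 ± 4.81 to 1.02 ± 0.737 TPM (SD, n = 3; log2 change -1.99, limma adjusted p = 0.014). Wnk4, a kinase gene of distal salt handling, fell from 17.1 ± 0.258 to 5.86 ± 1.81 TPM (-1.42, adjusted p = 0.0081). These were the 2 of the list called lower under each rescaling. Arhgef2, the GEF-H1 gene, fell from 14 ± 0.539 to 6.15 ± 2.35 TPM (-1.12, adjusted p = 0.0195) and Prss8, a channel-activating protease gene, from 142 ± 15.4 to 73.8 ± 25.5 TPM (-0.99, adjusted p = 0.0256). Epcam, whose product binds claudin 7, went from 1330 ± 134 to 1898 ± 383 TPM (0.50, limma adjusted p = 0.0456, and 0.0522 without the replicate block). Its sample ranges overlapped, and with quantile normalization 0 genes of the list were called higher. Spint2 stood at 2008 and 2723 TPM.

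Transcription factors known for epithelial genes went both ways, with a list median of -0.68. Of 10 tested, 2 were called higher and 5 lower, against 7.17% and 22.2% of all genes tested. Elf3, an epithelial Ets factor, rose from 282 ± 62.7 to 1170 ± 68.0 TPM (SD, n = 3; log2 change 2.10, limma adjusted p = 0.00067). Ovol1, a zinc finger gene, fell from 25.9 ± 3.14 to 4.16 ± 4.15 TPM (-2.68, adjusted p = 0.0098), and Tfcp2l1, a grainyhead-like factor of the collecting duct, fell from 22.6 to 10.3 TPM (-1.12, adjusted p = 0.0272). Of the other grainyhead-like genes, named after their values were seen, Grhl1 rose from 0.397 to 4.43 TPM (1.65, limma adjusted p = 0.0448). Grhl2 was not called, at 9.99 and 6.10 TPM. Elf3 and Ovol1 were also called under both rescalings, and Tfcp2l1 and Grhl1 under neither. Ovol1 was not called without the highest-component library of each sample (-2.73, limma adjusted p = 0.0543).

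Adherens junction and desmosome genes (list median -0.04) had 4 of 15 tested called higher and 1 lower, against 7.17% and 22.2% of all genes tested. Nectin2 and Nectin3, immunoglobulin-like adhesion genes, rose from 95.3 ± 15.0 to 199 ± 12.6 TPM (SD, n = 3; log2 change 1.07, limma adjusted p = 0.0065) and from 16.5 ± 2.85 to 47.5 ± 20.5 TPM (1.38, adjusted p = 0.0113), while Nectin4 fell from 9.69 to 3.56 TPM (-1.22, adjusted p = 0.0415), a call lost under both rescalings (limma adjusted p = 0.123 and 0.137). Dsc2, a desmosomal cadherin gene, rose from 7.54 to 17.8 TPM (1.1, adjusted p = 0.0199). Nectin2, Nectin3 and Dsc2 were called under both rescalings. The main cadherin genes were not called, Cdh1 at 249 ± 51.2 and 239 ± 27.8 TPM and Cdh16 at 1517 ± 314 and 1232 ± 193 TPM.

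Without the highest-component library of each sample, the calls among the genes of these 7 lists were Cldn23, Lsr, Elf3 and Nectin2 as higher and Pard6g and Wnk4 as lower (limma).

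**Figure D5:**
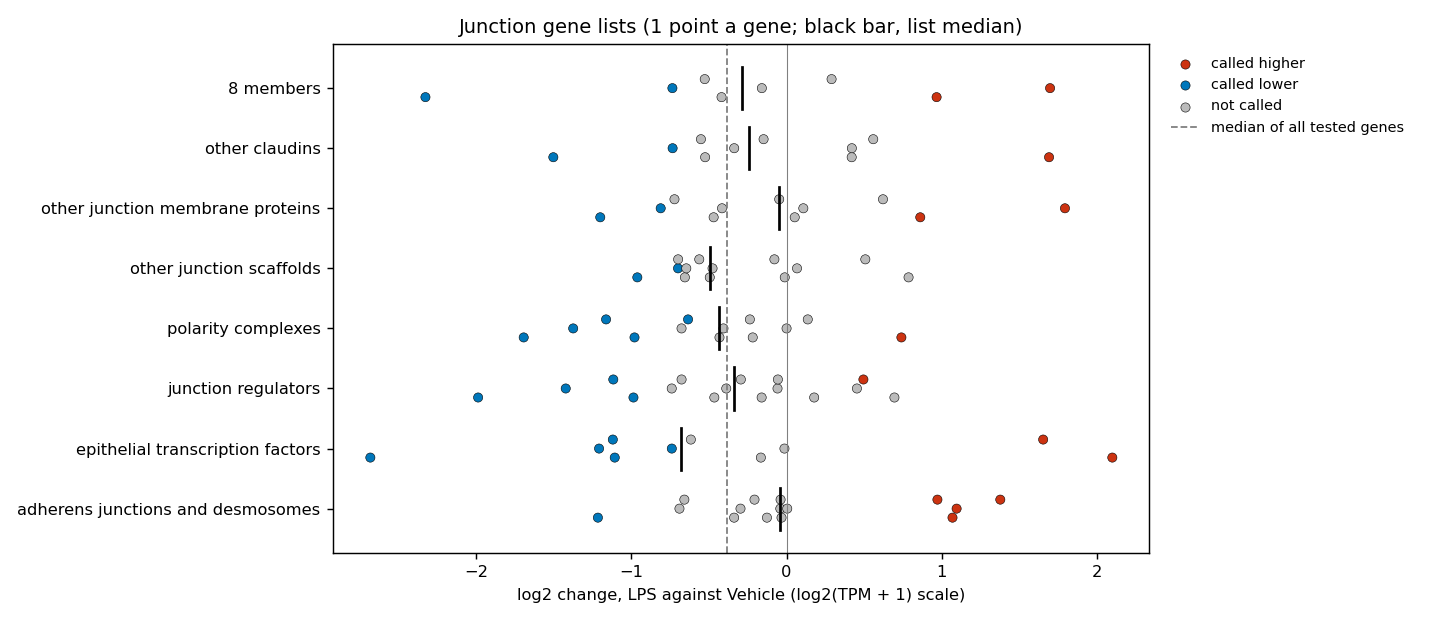
Log2 change between LPS and Vehicle (horizontal axis, log2(TPM + 1) scale) of every tested gene of the 8 genes and of the 7 junction lists, 1 point a gene, coloured by its limma call; black bars are list medians and the dashed line is the median of all genes tested, -0.38. The list medians ran from -0.68 for transcription factors to -0.04 for adherens junctions and desmosomes.

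Likeness of pattern was measured as the root mean square difference between profiles centred and scaled to unit SD over the 6 samples, in SD units. The 2 genes closest to Cldn4 were AABR07063829.1 (0.0816) and Net1 (0.0912), a RhoA exchange factor gene that went from 65.3 to 141 TPM. For Cldn8 they were Uqcrc2 (0.0265) and Timm8b (0.0532), both mitochondrial, with smaller changes of -0.26 and -0.43. For Cgn they were Vps53 (0.0301) and Sepsecs (0.0381), and for Marveld3 RGD1562726 (0.0853) and Tbx3 (0.0868). The closest to Cldn3 were Slc22a5 (0.123) and Cdc42se1 (0.127), to Cldn7 Sgpp2 (0.0861) and Endou (0.195), to Tjp1 Chd2 (0.086) and Ddx3 (0.118), and to Ocln Arfrp1 (0.141) and Vill (0.176). These are descriptions over 6 samples, picked from 12393 genes.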

How the data were processed

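The authors deposited 1 table of TPM per gene for 18 libraries. STAR 2.7.9a, RSEM 1.3.3 and the build Rnor_6.0 are named in the submitters' processing notes; the annotation release is not given in the sources used here. RSEM divides reads between close paralogs by estimate, strand use is not stated, and TPM keeps no read depth. Columns starting with N were read as Vehicle and with L as LPS (0 columns of other samples, 0 identical libraries).

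Each sample's value was the mean log2(TPM + 1) of its 3 libraries. A gene entered the test where its average reached 1 TPM (12393 of 32883). Groups were compared with limma 3.58.1 in R 4.3.3 (two-sided, moderated variances with a trend, p adjusted by Benjamini-Hochberg), blocking on sample number, since pairing is stated in the design text. Deviations of same-numbered samples correlated at 0.062, -0.017 and 0.069 across genes. Claudin sums, shares and ratios had exact permutation tests over samples, which did not use the pairing. The fit was also run on simulated data that had no pair effect and no shift shared by most genes. Its outcome is not given here, and it does not speak to those features.

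The genes, lists and tests were chosen with earlier results of these data known. Named were the 8 genes, claudins of at least 1 TPM, up to 4 called and the 2 most abundant genes of each list, and the closest profiles; some genes that this rule names are not reported here. Settings that leave out libraries were added after seeing the data.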

Additional observations from a re-analysis of the deposited data

How the results depend on the processing

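The fit was repeated under 16 other settings. The counts of 889 genes higher and 2757 lower became 0 and 0 with the median over libraries (limma; before adjustment 1019 and 4167 genes had p under 0.05), 18 and 2 with no filter, 228 and 72 without the 3 libraries least like the others of their sample, 248 and 140 without the library of each sample highest on the first component, and from 0 and 0 to 1004 and 3595 without 1 sample number (738 and 1463 unadjusted without number 3, limma). Only the lower count moved to 5295 with 18 libraries and an estimated correlation, 462 under median-ratio scaling and 579 under quantile normalization.

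With the median over libraries, no filter, the 3 least alike libraries left out, and the highest-component libraries left out, in that order, Cldn4 stood at 1.71, 1.70, 1.59 and 1.55, Cldn8 at -0.74, -0.74, -0.74 and -0.75, and Cgn at -2.32, -2.33, -2.22 and -2.21, each without a call. Marveld3 lost its call at 0.93, 0.97 and 0.97, and kept it without the 3 least alike libraries. Under median-ratio scaling Cldn4 stood at 2.10 and Cldn8 at -0.33, and under quantile normalization Cldn4 at 1.64, without a call. Leaving out 1 sample number gave ranges of 1.28 to 2.34 for Cldn4, -0.87 to -0.58 for Cldn8, -2.71 to -1.98 for Cgn, 0.85 to 1.07 for Marveld3, -1.19 to -0.13 for Cldn3 (called without number 1) and -0.31 to 0.024 for Ocln. Ocln changed sign under median-ratio scaling, at 0.24, and under quantile normalization, at 0.10. The Cldn3 to Cldn8 log2 ratio ran from -0.32 to 0.63 and the Cldn3 share difference from -3.82 to 0.757 points. The cause of these shifts was not tested.

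Without the replicate block the counts were 912 and 3624, and the calls of the 8 genes did not change. The depth is unknown, so limits set by it cannot be given.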
